A study of Homo sapiens with 4 samples.

Results

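Gene expression was compared between the CD166- cells of SW1990 and the CD166- cells of Panc-1, which are human pancreatic cancer cell lines. CD166 (ALCAM) is an adhesion molecule of the immunoglobulin superfamily. Subconfluent cultures of each line were labelled with a phycoerythrin-conjugated antibody to ALCAM and passed through a magnetic separator, and the CD166- cells were the unlabelled cells left after depletion. Their total RNA was hybridised to Illumina HT-12v4 BeadChips, with 1 array for each of the 4 populations (CD166+ and CD166- cells of both lines). No treatment, passage or clone was given for either line, and no source used here says that a population was prepared more than once. The comparison therefore has 1 array a side, no replicate check and no p-value, and it gives folds only. All 10694 annotated genes that were detected at a detection p under 0.01 on either CD166- array were included, of 20044 genes named on the arrays.

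Cell lines from 1 kind of tumour carry the genome, lineage state and culture history of the tumour they came from. Pancreatic ductal cancers often lose tumour suppressors such as CDKN2A and SMAD4, and they carry gains and losses of chromosome segments that differ between tumours. Lines also differ in how far they keep epithelial junctions and keratins or take up mesenchymal genes. A difference between sorted fractions of separate lines contains all of these beside anything that belongs to the sorted state.

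Signals are intensities after background correction and quantile normalization over the 4 arrays, in arbitrary units, and folds are ratios of these signals. Where only 1 array detected a gene, the other side was set to the lowest signal among its detected probes, or to the gene's own signal if higher, and the fold is written "at least". Signals of different genes come from different probes and were not compared with each other. In a bulk RNA sample, fewer cells of a type and less RNA per cell cannot be told apart. Before normalization the mean intensity was 325 on the SW1990 CD166- array and 339 on the Panc-1 CD166- array, and 9460 and 9976 genes were detected on them.

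The SW1990 arrays stood apart from each other. Over 11640 genes the log2 signals of SW1990 CD166- correlated at 0.827 with SW1990 CD166+, at 0.872 with Panc-1 CD166- and at 0.874 with Panc-1 CD166+, while the Panc-1 arrays correlated with each other at 0.989. SW1990 CD166+ correlated at 0.817 with Panc-1 CD166- and at 0.834 with Panc-1 CD166+. Each of the other arrays thus correlated least with SW1990 CD166+. Before normalization that array also had the highest mean intensity, 413, against 325 on SW1990 CD166-, 339 on Panc-1 CD166- and 338 on Panc-1 CD166+. Of 77 genes with a signal over 200 in SW1990 CD166+ cells and not detected on either Panc-1 array, 6 (7.79%) were detected in SW1990 CD166- cells. Of 165 genes with signals over 200 on both Panc-1 arrays and not detected in SW1990 CD166+ cells, 96 (58.2%) were detected in SW1990 CD166- cells. Over all 20044 named genes, 9460 were detected there. Both sets were picked where SW1990 CD166+ differed from the near-alike Panc-1 arrays. Their shares therefore reflect SW1990 CD166+ as well and do not single out SW1990 CD166- cells. CDKN2A had signals of 33.3 in SW1990 CD166- and 26.2 in Panc-1 CD166- cells, not detected on either array. Its signals were 1754 in SW1990 CD166+ and 83.9 in Panc-1 CD166+ cells. Its neighbour MTAP, an enzyme of methionine salvage, had signals of 32.1 and 30.6 on the CD166- arrays, again not detected, and of 331 and 45.9 on the CD166+ arrays. The Panc-1 CD166+ signals of both genes lay above the floor of that array, 37.4. Whether either line had lost this locus was not tested. All differences below rest on the library labelled SW1990 CD166-, which is called SW1990 as its label has it. Whether the cells of either SW1990 library were of that line was not tested. No comparison of the CD166- cells can be made without the SW1990 CD166- library. The CD166+ arrays of both lines, which do not include it, are given beside most gene lists and beside genes where they bear on a result.

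STMN3, CMTM7 and TUBB2B, named as marks of this comparison, were strong on both CD166- arrays, and 1 of the 3 differed by over 2-fold. STMN3, a stathmin that binds tubulin, had a signal of 12087 in SW1990 and 4691 in Panc-1 CD166- cells, a difference of 1.37 on the log2 scale. CMTM7, a MARVEL-domain membrane protein, had 4522 and 3524, and TUBB2B, a beta-tubulin, had 6768 and 5162. Among CD166+ cells the order was the opposite. STMN3 had 79.0 in SW1990 and 3862 in Panc-1 CD166+ cells, CMTM7 had 47.1 and 3645, and TUBB2B had 26.5, not detected, and 2789. These 3 genes thus set SW1990 CD166+ cells apart from the other 3 populations and did not tell the CD166- populations apart by more than 2.58-fold.

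ALCAM, the gene of the sorted marker, had a signal of 47.3 in SW1990 and 44.3 in Panc-1 CD166- cells, against 293 and 235 in the CD166+ cells. The CD166- signals lay near the floors of 41.5 and 39.0, so a difference between the lines could not be read well. Both CD166- arrays lay far below both CD166+ arrays, in the direction of the sort labels, although the sort was made on surface protein and not on RNA. KRT8, a keratin of simple epithelia, had 4691 and 7082, and VIM, the intermediate filament protein of mesenchymal cells, had 14717 and 19761. EPCAM, an epithelial surface protein, was weakly present in both, at 99.8 and 178, and CDH1 (E-cadherin) was not detected in either. Of 20 markers of leukocytes, endothelium and red cells 17 were not detected, PTPRC, CD3E, PECAM1 and VWF among them. CD14, CD68 and CDH5 were detected on at least 1 array and lay within 2-fold. Of the acinar and islet markers only CEL, carboxyl ester lipase, was detected, at 199 in SW1990 and 49.2 in Panc-1 cells.

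In all, 8742 genes (81.7%) were detected on both CD166- arrays, 718 on SW1990 alone and 1234 on Panc-1 alone. Signals of 1132 genes were over 2-fold higher in SW1990 (10.6% of the genes) and those of 1299 were over 2-fold higher in Panc-1 (12.1%). These shares are the background for each count of members given below. With the deposited scaled table, which has no background correction, the same rule gave 508 and 1020 genes, so that 33.2% of the called genes were higher in SW1990 in place of 46.6%. Over 4-fold there were 204 genes higher in SW1990 and 415 higher in Panc-1, and over 10-fold 43 and 125. These counts include bounds for genes detected on 1 array. Among genes detected on both, 933 were over 2-fold higher in SW1990 and 892 in Panc-1, 139 and 200 over 4-fold, and 20 and 37 over 10-fold. The median difference over all genes was 0.027 on the log2 scale, and 5978 genes (55.9%) lay within 1.5-fold. For the 2661 genes with several detected probes, the SD of the log2 difference over probes of 1 gene was 0.51, and in 4 of these genes the probes differed by over 2-fold in opposite directions.

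**Figure D1:**
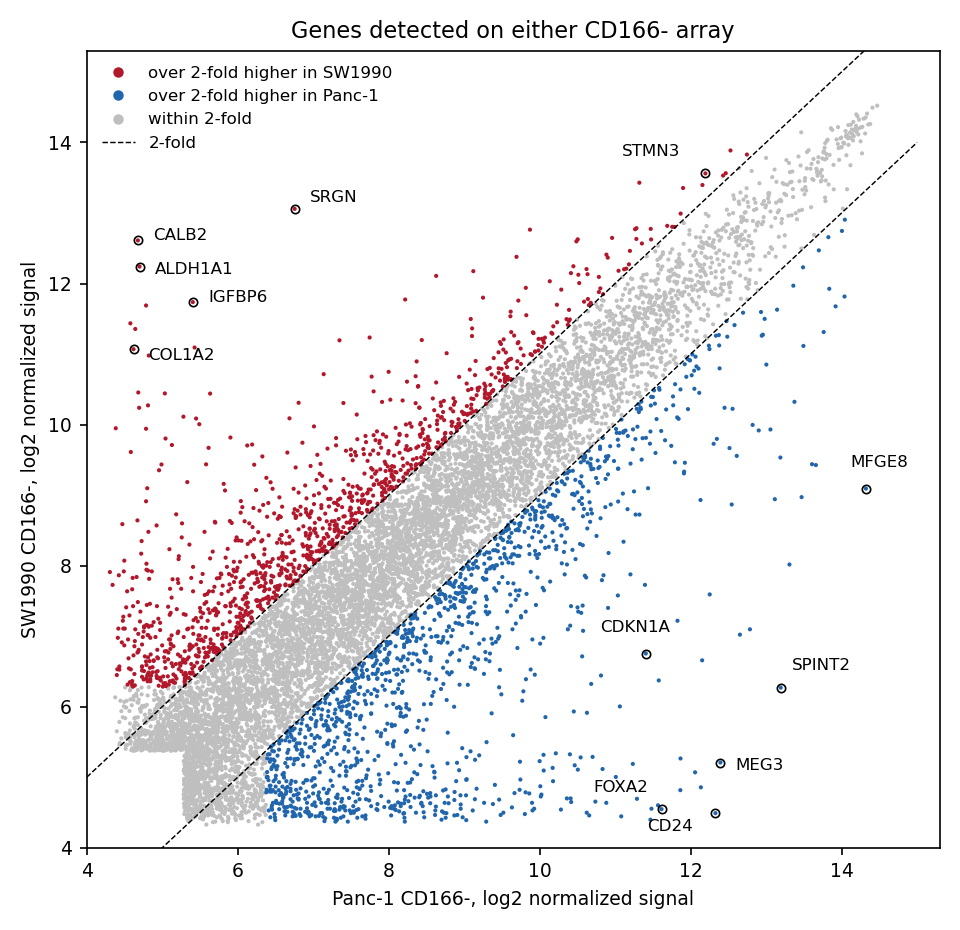
Log2 normalized signal in SW1990 CD166- cells (y axis) against Panc-1 CD166- cells (x axis), 1 point for each gene detected on either array; dashed lines mark 2-fold and the grey corner at low signals holds genes detected on 1 array whose bounded fold was under 2. More points lie far below the lower line, with 125 genes over 10-fold higher in Panc-1, than far above the upper one, with 43.

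Among the genes higher in SW1990, several were strong there and below detection on the Panc-1 array. ALDH1A1, an aldehyde dehydrogenase that makes retinoic acid, had a signal of 4839 in SW1990 and 26.0 in Panc-1 CD166- cells, at least 124-fold higher. TNFSF4, the ligand of OX40 on T cells, had 3301 and 27.6 (at least 84.7-fold). COL1A2, the alpha 2 chain of type I collagen, had 2148 and 24.6 (at least 55.1-fold). Other probes of these genes differed by 5.89, 5.64 and 6.22 on the log2 scale. KLK6, a kallikrein-related secreted protease, was at least 71.1-fold higher, RGS4, a regulator of G-protein signalling, at least 67.3-fold, and EPHA4, an ephrin receptor, at least 31.8-fold. CALB2, which encodes calretinin, had the largest bound, with 6256 against 25.6 (at least 161-fold), but its other detected probe differed by only 0.73 on the log2 scale. All 7 of these genes were below detection on both CD166+ arrays as well. They were among 25 genes with a signal over 200 in SW1990 CD166- cells that none of the other 3 arrays detected.

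A second set of genes higher in SW1990 was strong in its CD166+ cells too. IGFBP6, which binds insulin-like growth factor II, had signals of 3413 in SW1990 and 42.4 in Panc-1 CD166- cells (80.4-fold), and of 1713 and 94.3 in the CD166+ cells. TRIP6, a LIM-domain protein of focal adhesions, had 2184 and 43.1 (50.7-fold), with 1859 and 109 in CD166+ cells. UCA1, a long non-coding RNA, had 1087 and 43.7 (24.9-fold), with 1624 and 73.6 in CD166+ cells. Both SW1990 arrays lay above both Panc-1 arrays for these genes. The same held for LTBR, the lymphotoxin beta receptor (at least 51.8-fold), RAB17, a GTPase of epithelial membrane traffic (at least 36.0-fold), BAMBI, a pseudoreceptor that dampens TGF-beta signalling (11.5-fold), NR2F1, an orphan nuclear receptor (11.2-fold), TIMP2, an inhibitor of metalloproteinases (11.2-fold), and GAA, lysosomal alpha-glucosidase (10.2-fold).

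SRGN belonged to neither set. This proteoglycan of secretory granules had a signal of 8531 in SW1990 and 108 in Panc-1 CD166- cells (79.3-fold), and 28.6, not detected, in SW1990 CD166+ and 117 in Panc-1 CD166+ cells. SEMA3A, a secreted axon guidance factor, was 22.9-fold higher in SW1990, with 1028 and 45. KLF2, a Krueppel-like transcription factor, was 14.4-fold higher, with 2344 and 163. Among CD166+ cells KLF2 differed by -0.46 on the log2 scale, and SEMA3A had a signal of 26.6, not detected, in SW1990 and 47.8 in Panc-1.

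The genes with the largest folds towards Panc-1 were strong on its CD166+ array too. MEG3, an imprinted long non-coding RNA, had a signal of 37.0, not detected, in SW1990 and 5386 in Panc-1 CD166- cells, at least 129.7-fold higher in Panc-1. FOXA2, a forkhead factor of endoderm and pancreas, had 23.4, not detected, and 3136 (at least 75.5-fold). CCN2 (connective tissue growth factor), a target of YAP and TGF-beta, had 28.2, not detected, and 3727 (at least 89.8-fold). Other probes of MEG3 and CCN2 differed by -4.57 and -4.77 on the log2 scale. CCL2, a chemokine that attracts monocytes, was at least 68.2-fold higher, and CD70, a ligand of the TNF family, at least 89.9-fold. In CD166+ cells CCN2 and CD70 differed by -6.54 and -6.22 on the log2 scale, and MEG3, FOXA2 and CCL2, which SW1990 CD166+ cells did not show at a detected level, by at least -7.86, -6.23 and -6.37.

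MFGE8 (lactadherin), a secreted protein that bridges integrins and phosphatidylserine, had signals of 546 in SW1990 and 20479.6 in Panc-1 CD166- cells (37.5-fold), and 41.1 and 18711 in CD166+ cells. SPINT2, an inhibitor of cell-surface serine proteases, had 77.2 and 9369, a fold of 121 that was the largest among genes detected on both CD166- arrays. CD24, a glycosylated surface protein used to mark pancreatic cancer stem cells, had 22.5, not detected, and 5144, at least 124-fold higher in Panc-1, and its other probe differed by -4.13 on the log2 scale. PLOD2, a collagen lysyl hydroxylase, was at least 108-fold higher in Panc-1. CD24 and PLOD2 were present in SW1990 CD166+ cells, with signals of 865 and 479.5. CD24 has near-identical pseudogene copies, which the probes may not separate.

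A last set of genes was low in SW1990 CD166- cells only. BASP1, a membrane protein of growth cones, had a signal of 101 in SW1990 and 4553 in Panc-1 CD166- cells (45.2-fold), but 10051 in SW1990 CD166+ cells. CRIP1, a small LIM-domain protein, had 130.0 and 6441 (49.5-fold), and 10784 in SW1990 CD166+ cells. LDHB, the B subunit of lactate dehydrogenase, had 64.2 and 2139 (33.3-fold), and 3445 in SW1990 CD166+ cells. FSCN1 (fascin), which bundles actin, was 39.2-fold and ABLIM1, an actin-binding LIM protein, 26.2-fold higher in Panc-1 CD166- cells. CDKN1A, which encodes the p53-induced cell cycle inhibitor p21, had 108 in SW1990 and 2714 in Panc-1 CD166- cells (25.1-fold), against 1763 and 2652 in CD166+ cells. For FSCN1, ABLIM1 and CDKN1A the lines lay within 2-fold among CD166+ cells. RPL37A, a ribosomal protein gene, was 22.6-fold higher in Panc-1 by its brightest probe, but another probe differed by 0.15 on the log2 scale, so its difference depended on the probe.

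**Figure D2:**
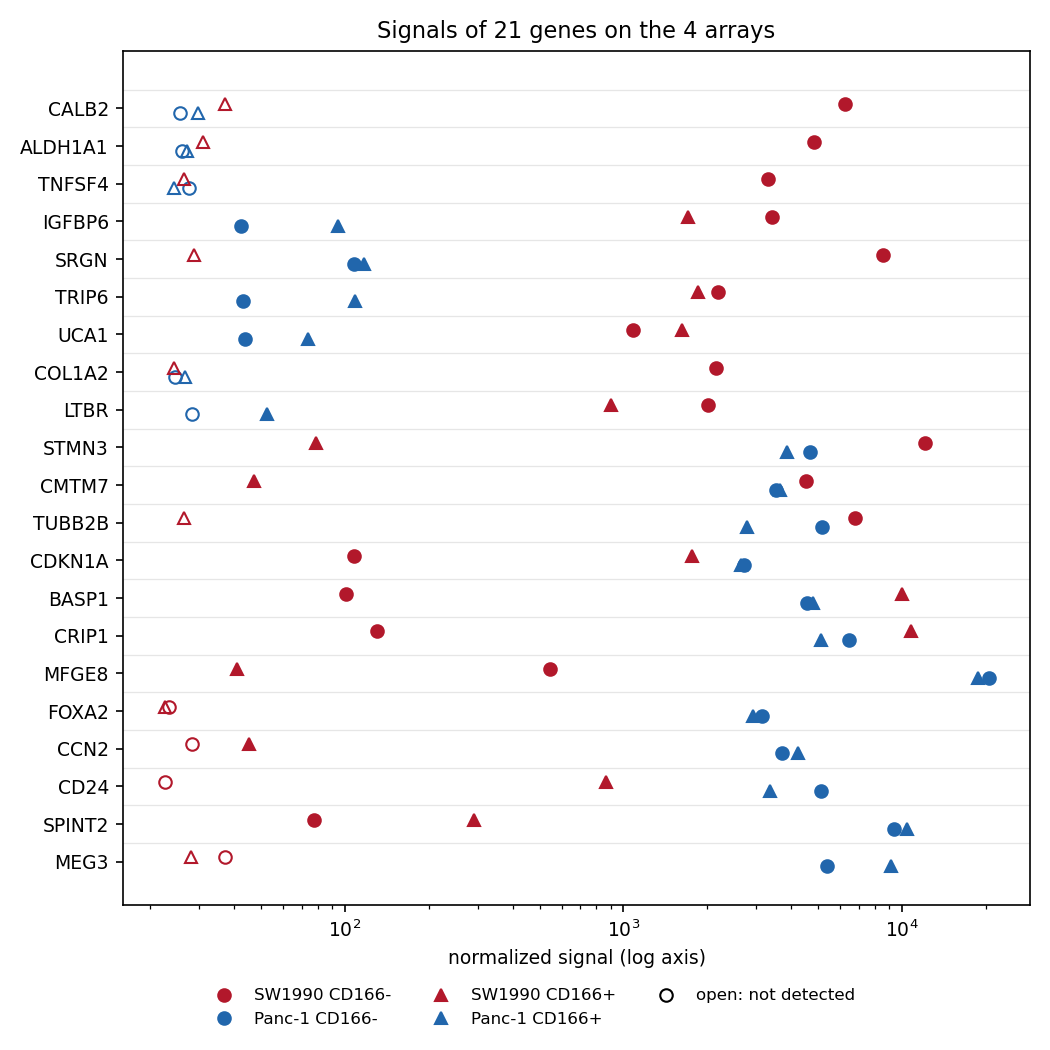
Normalized signal (x axis, log scale) of 21 genes on the 4 arrays, with circles for CD166- and triangles for CD166+ cells, red for SW1990 and blue for Panc-1, and open symbols where the gene was not detected. STMN3, CMTM7 and TUBB2B show 3 arrays together and SW1990 CD166+ alone at the left, whereas for MEG3 and FOXA2 both SW1990 arrays lie at the left.

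Promoter sequences are shown for the 2 genes with the largest folds in each direction that had an entry among the RefSeq promoter windows of GRCh38.p14, which run from 250 bases before to 50 bases after a gene's start. CG dinucleotides, the site of DNA methylation, are in capitals. The window of ALDH1A1 (chr9:72953004-72953303, minus strand) held 7 CG and that of TNFSF4 (chr1:173205483-173205782, minus strand) held 6, both without TATAAA on either strand.
ALDH1A1: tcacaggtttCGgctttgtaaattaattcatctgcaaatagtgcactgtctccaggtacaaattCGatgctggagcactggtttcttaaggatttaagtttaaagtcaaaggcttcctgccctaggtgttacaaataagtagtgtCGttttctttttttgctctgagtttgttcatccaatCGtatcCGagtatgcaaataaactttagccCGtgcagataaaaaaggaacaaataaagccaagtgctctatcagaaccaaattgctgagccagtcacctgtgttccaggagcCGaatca
TNFSF4: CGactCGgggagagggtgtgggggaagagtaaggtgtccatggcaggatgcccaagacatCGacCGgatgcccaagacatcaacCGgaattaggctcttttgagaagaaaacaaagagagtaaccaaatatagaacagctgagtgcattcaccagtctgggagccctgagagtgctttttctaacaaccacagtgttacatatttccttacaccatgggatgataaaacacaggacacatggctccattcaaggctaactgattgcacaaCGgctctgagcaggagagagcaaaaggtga
The window of MEG3 (chr14:100825858-100826157, plus strand) held 19 CG and TATAAA, and that of CD24 (chr6:106975578-106975877, minus strand) held 25 CG and no TATAAA.
MEG3: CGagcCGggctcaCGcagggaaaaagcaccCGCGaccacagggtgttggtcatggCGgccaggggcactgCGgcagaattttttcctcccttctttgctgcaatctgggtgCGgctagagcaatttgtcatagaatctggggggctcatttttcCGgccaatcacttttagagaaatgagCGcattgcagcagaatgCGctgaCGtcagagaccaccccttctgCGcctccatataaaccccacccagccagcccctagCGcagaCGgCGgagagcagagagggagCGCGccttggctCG
CD24: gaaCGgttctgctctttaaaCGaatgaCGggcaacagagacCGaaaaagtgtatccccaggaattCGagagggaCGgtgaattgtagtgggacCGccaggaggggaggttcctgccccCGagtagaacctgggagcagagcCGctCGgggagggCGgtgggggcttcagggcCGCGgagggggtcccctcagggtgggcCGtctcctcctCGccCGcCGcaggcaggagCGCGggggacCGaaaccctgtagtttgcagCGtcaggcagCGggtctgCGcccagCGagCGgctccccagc
Of all genes detected on either CD166- array, 8607 had a window, with a median of 27.0 CG. The 31 genes with a window among those over 10-fold higher in SW1990 had a median of 15.0 CG, and 4 of them (12.9%) had under 5, against 5% of all detected genes. The 92 such genes over 10-fold higher in Panc-1 had a median of 27.0, and 2 (2.17%) had under 5. TATAAA was found in 3 of the 31 windows (9.68%), in 9 of the 92 (9.78%), in 5.51% of the windows of detected genes and in 12% of all 27305 windows. These counts describe the letters in the windows, and no methylation was measured here.

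Genes of epithelial junctions, in a list that also holds other epithelial genes such as EHF and SPINT2, were more often higher in Panc-1. SPINT2, a protease inhibitor that lies in the chromosome 19 run described below, had the largest difference of the list, -6.92 on the log2 scale. Of 44 such genes on the arrays 19 were detected, 7 were over 2-fold higher in Panc-1 and 1, the transcription factor EHF, in SW1990, with a median difference of -0.66 against 0.027 over all genes. JUP (plakoglobin), which links cadherins to the cytoskeleton, had a signal of 77.5 in SW1990 and 706 in Panc-1 CD166- cells. This was a difference of -3.19 on the log2 scale, but other JUP probes differed by -0.80 and -1.03. CLDN1, a tight junction claudin, had 37.3, not detected, and 855 (a difference of at least -4.36), and CLDN7 had 23.2, not detected, and 231. In CD166+ cells the median of the list was 0.43, with 9 members higher in SW1990 and 4 in Panc-1, and JUP had 1136 and 602. KRT19, a keratin of pancreatic ducts, had 741 in SW1990 and 9339 in Panc-1 CD166- cells, and KRT80 had 1139 and 532.

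Of 15 detected mesenchymal genes 6 were higher in Panc-1 and 1 in SW1990, with a median of -0.43. In CD166+ cells 9 of 19 were higher in Panc-1 and 5 in SW1990, with a median of -0.97. CDH2 (N-cadherin) had a signal of 30.9, not detected, in SW1990 and 201 in Panc-1 CD166- cells, SPARC, a matricellular protein, had 23.8, not detected, and 794, and TGFBI, a matrix protein induced by TGF-beta, had 1847 and 8209. TAGLN (transgelin), an actin-binding protein of smooth muscle, was the 1 member higher in SW1990, with 600.0 and 169. ZEB1, which represses CDH1, was not detected on any of the 4 arrays by the probe used. The study measured Zeb1 mRNA by qRT-PCR in sorted cells of both lines and reported more of it in CD166- cells. Non-detection here thus does not show that ZEB1 was absent. CD44, the hyaluronan receptor, was strong in both, with 12239 in SW1990 and 10191 in Panc-1 CD166- cells.

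Matrix genes divided by family. Of 25 detected collagens and collagen-modifying genes, 6 were higher in SW1990 and 7 in Panc-1, the same numbers as among 25 in CD166+ cells. COL6A3 had a signal of 388 in SW1990 and 38.4, not detected, in Panc-1 CD166- cells, and COL4A1 216 and 37.1, not detected, whereas COL1A1 had 24.9, not detected, and 346, and COL18A1 had 1196 and 6019.6. The chains of type I collagen thus differed in opposite directions, with COL1A2 higher in SW1990 and COL1A1 higher in Panc-1. Of 11 detected laminins and basement membrane genes 5 were higher in Panc-1 and 0 in SW1990, with a median of -0.94, and in CD166+ cells 5 of 12 were higher in Panc-1 and 2 in SW1990. LAMC1 had 455 and 1872, and LAMC3 had 124 and 958.

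The integrins, receptors for this matrix, were also more often higher in Panc-1. Of 11 detected, 5 were higher in Panc-1 and 1 in SW1990, and in CD166+ cells 7 of 14 and 1. ITGA2, a collagen-binding subunit, had a signal of 38.9, not detected, in SW1990 and 1492 in Panc-1 CD166- cells (a difference of at least -5.17), and ITGB5, which pairs with alpha V, had 967 and 7655. ITGB4, the hemidesmosome subunit, had 138 and 22.7, not detected. ITGB1, the common beta subunit, lay within 2-fold, at 7978 and 10051. Among CD166+ cells ITGA2 had 81.8 and 2344 and ITGB5 had 801 and 7129, both again higher in Panc-1, and ITGB4 had 169 and 39, again higher in SW1990.

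Metalloproteinases and their inhibitors leaned towards SW1990, with 6 of 15 detected members higher there, 2 higher in Panc-1 and a median of 0.79. The count of 6 was 3 in the deposited scaled values. In CD166+ cells 6 of 18 were higher in SW1990 and 1 in Panc-1, with a median of -0.08. TIMP2 had a signal of 4415 in SW1990 and 396 in Panc-1 CD166- cells, TIMP1 had 14546 and 6868, and ADAM15, a membrane metalloprotease, had 3858 and 1249. Other ADAM15 probes differed by 1.97, 1.90 and -0.44 on the log2 scale. ADAM19 was the largest exception, with 26.5, not detected, in SW1990 and 1035 in Panc-1. MMP2 was low on both CD166- arrays, with 24.8, not detected, and 55.1.

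In the BMP and TGF-beta pathway 7 of 34 detected genes were higher in SW1990 and 13 in Panc-1, and in CD166+ cells 8 and 11 of 36. Of the ligands, BMP7 had a signal of 349.7 in SW1990 and 145 in Panc-1 CD166- cells, and BMP6 had 79.4 and 529.6. Of the receptors, TGFBR2 had 23.9, not detected, and 313, and the co-receptor TGFBR3 had 455 and 66.8. Among the transducers and antagonists, SMAD3 had 313 and 1522, SMAD4, a tumour suppressor of this cancer, had 405 and 162, and BAMBI had 842 and 73.1. SMAD4 had 493 and 199 in the CD166+ cells, so both SW1990 arrays were above both Panc-1 arrays. BMP7 was 22.8, not detected, in SW1990 CD166+ and 66.2 in Panc-1 CD166+ cells, below both CD166- arrays.

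Genes induced by ERK signalling were more often higher in Panc-1, with 9 of 24 detected members against 3 in SW1990 and a median of -0.60. In CD166+ cells 17 of 24 were higher in Panc-1 and 2 in SW1990, with a median of -2.33. IER3, an immediate early gene, had a signal of 813 in SW1990 and 5853 in Panc-1 CD166- cells, DUSP1, a MAP kinase phosphatase, had 425 and 1588, and DUSP6, which inactivates ERK, had 37.9, not detected, and 225. Another DUSP6 probe differed by -0.76 on the log2 scale. SPRY2, a feedback inhibitor of receptor tyrosine kinases, went the other way, with 1096 and 413. So did KCNN4, with 457 and 96.3, and EPHA4, with 1237 and 28.1, not detected. The EPHA4 difference, at least 4.99 on the log2 scale, was the largest of the list in either direction. ERBB2, a receptor tyrosine kinase, had 1308 and 260.0 (5.03-fold), but another probe differed by 0.58 on the log2 scale.

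In CD166- cells interferon-stimulated genes were more often higher in Panc-1. Of 36 detected, 10 were higher in Panc-1 and 1 in SW1990, with a median of -0.30. The count of 10 was 6 in the deposited scaled values and 5 without background correction. IRF7, a transcription factor of the interferon response, had a signal of 30.8, not detected, in SW1990 and 476 in Panc-1 CD166- cells, IFIT1 had 228 and 1004, and PARP14 had 44.4 and 253. The IRF7 difference was at least -3.52 on the log2 scale, but another IRF7 probe differed by -1.93, and another IFIT1 probe by only -0.29. IFITM1, a membrane protein that blocks virus entry, was the exception, with 1549 and 396. Among CD166+ cells 16 members were higher in SW1990 and 3 in Panc-1, with a median of 0.70. PSMB8, a subunit of the immunoproteasome, had 28.1, not detected, and 276 in CD166- cells and 1392 and 222 in CD166+ cells.

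Position-specifying transcription factors separated the lines in both fractions. Of 19 detected HOX genes and HOX cofactors 10 were higher in Panc-1 and 2 in SW1990, with a median of -1.01, and in CD166+ cells 11 were higher in Panc-1 and 1 in SW1990, with a median of -1.32. HOXC9 had a signal of 22.6, not detected, in SW1990 and 734 in Panc-1 CD166- cells, HOXC13 had 74.5 and 882, and HOXC6 had 324 and 2212. HOXB8 was higher in SW1990, with 2502 and 1151, but had 31.5, not detected, and 1264 in CD166+ cells. Of the pancreatic lineage factors PDX1 had 31.0, not detected, in SW1990 and 150.3 in Panc-1 CD166- cells, and MNX1, a homeobox factor of the early pancreas, had 315 and 41.1. Another MNX1 probe differed by 0.89 on the log2 scale. Of 11 detected factors of this list 3 were higher in each line, and in CD166+ cells 4 of 16 in SW1990 and 5 in Panc-1. Of 13 detected imprinted genes 5 were higher in Panc-1, MEG3 and H19 among them, and 0 in SW1990, whereas in CD166+ cells 2 of 16 were higher in each line. H19 had 135 and 1526, and 1171 and 741 in CD166+ cells.

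Of 14 detected aldehyde dehydrogenases 6 were higher in SW1990 and 0 in Panc-1, with a median of 0.78, and in CD166+ cells 6 and 1 of 14. In the deposited scaled values the count of 6 was 2, and ALDH4A1 lay within 2-fold. Beside ALDH1A1, these included ALDH7A1, a lysine catabolic enzyme, with a signal of 2084 in SW1990 and 702 in Panc-1 CD166- cells, and ALDH4A1, which acts in proline breakdown, with 345 and 124. ALDH1A1 was not detected on either CD166+ array, whereas ALDH7A1 had 1764 and 610.4 there. Of 29 detected genes of sterol and fatty acid synthesis 8 were higher in SW1990 and 1 in Panc-1, and in CD166+ cells 6 and 3 of 29. SCD, which desaturates stearate, had 6323 and 1453, ACACA (acetyl-CoA carboxylase) had 1562 and 303, and SREBF1, a master factor of lipid synthesis, had 1081 and 358.

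Of 29 detected lysosomal genes 8 were higher in SW1990 and 3 in Panc-1, with a median of 0.33 and with LAMP1, a major lysosomal membrane protein, at 6349 and 2489. In CD166+ cells the balance was the opposite, with 4 of 29 higher in SW1990 and 10 in Panc-1, a median of -0.31, and LAMP1 at 3675 and 3579. Of 41 detected cell cycle genes 8 were higher in SW1990 and 2 in Panc-1, and 1 of the latter was CDKN1A. In CD166+ cells 9 of 44 were higher in SW1990 and 2 in Panc-1. MKI67, the proliferation marker, had a signal of 251 in SW1990 and 96.0 in Panc-1 CD166- cells, FOXM1, a factor of the mitotic programme, had 658 and 221, and CDT1, which licenses replication origins, had 1280.3 and 471. Of 47 respiratory chain genes 1 was higher in SW1990 and 3 in Panc-1, with a median of -0.19, against 7 and 0 in CD166+ cells, with a median of 0.28.

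Of 34 detected genes of hypoxia and glycolysis 5 were higher in SW1990 and 8 in Panc-1, with a median of -0.29, whereas in CD166+ cells 9 were higher in SW1990 and 6 in Panc-1, with a median of 0.30. BNIP3, a mitophagy receptor, had a signal of 39.1, not detected, in SW1990 and 1665 in Panc-1 CD166- cells, but 1837 and 1542 in CD166+ cells. ADM (adrenomedullin) had 1281 and 10626, and ALDOA (aldolase A) had 2218 and 11537. SLC2A3 (GLUT3), a glucose transporter, had 170.0 and 23, not detected. Targets of ATF4, the factor of the amino acid response, were higher in Panc-1 in 6 of 28 detected genes and in SW1990 in 0, and in CD166+ cells in 8 and 3 of 28. DDIT3 (CHOP) had 83.8 and 396, and STC2 (stanniocalcin) had 25.8, not detected, and 565.

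**Figure D3:**
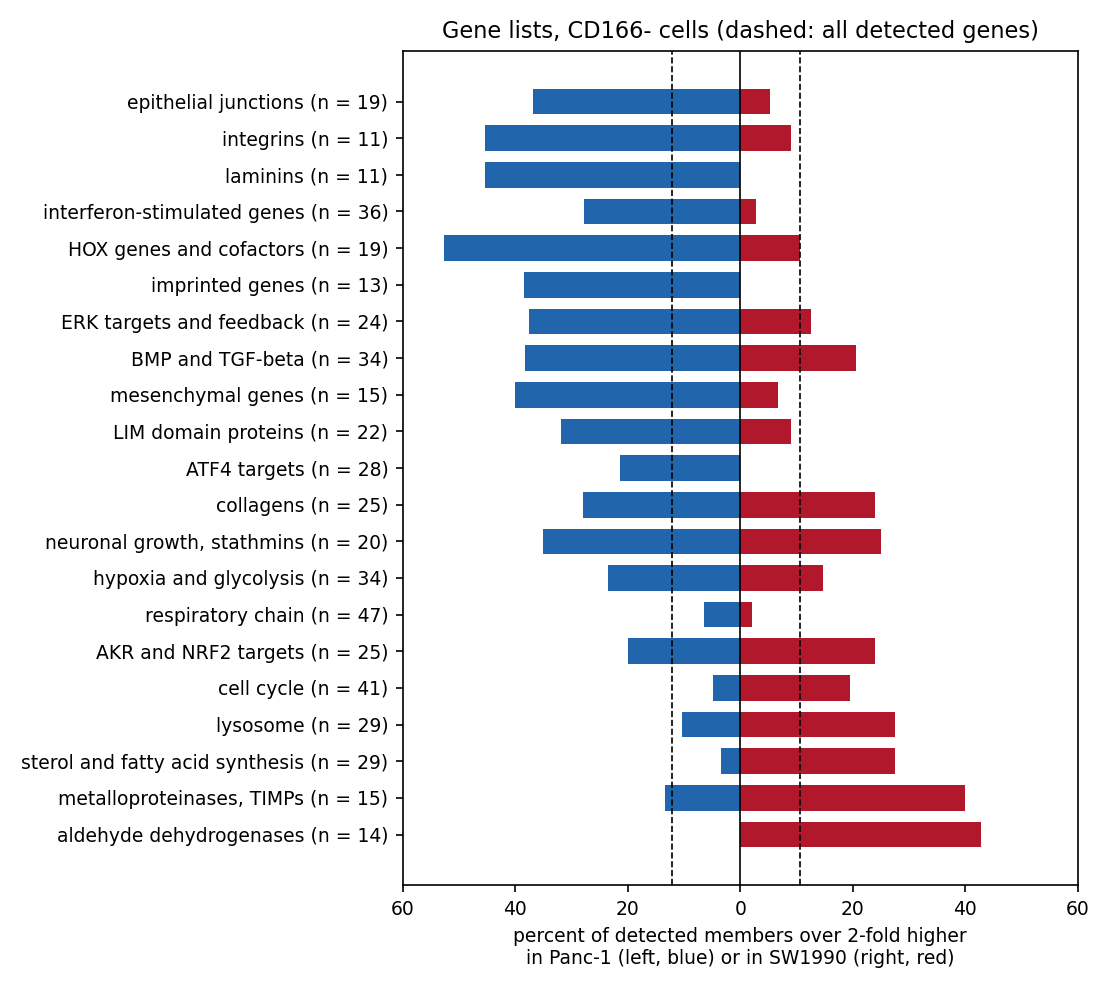
Share of the detected members of 21 gene lists that were over 2-fold higher in Panc-1 (blue, to the left) or in SW1990 (red, to the right) CD166- cells, in percent, with the number detected beside each list. Dashed lines mark the shares over all detected genes, 12.1% to the left and 10.6% to the right; the HOX genes reach furthest left with 10 of 19 and the aldehyde dehydrogenases furthest right with 6 of 14.

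Chromosomes differed in their balance. On chromosome 9, 24.0% of 437 detected genes were over 2-fold higher in SW1990 and 9.38% in Panc-1, and on chromosome 21 the shares were 23.3% and 6.03% of 116. On chromosome 11, 24.5% of 641 genes were higher in Panc-1 and 4.21% in SW1990, and on chromosome 15 22.3% and 3.35% of 328. The medians of the differences were 0.43, 0.52, -0.42 and -0.49 on these 4 chromosomes among CD166- cells and 0.46, 0.34, -0.16 and 0.10 among CD166+ cells. The median of chromosome 15 thus had the opposite sign among CD166+ cells.

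Within chromosomes the differences gathered in stretches of neighbouring genes. Windows of 25 detected genes, in the order of their RefSeq positions, were ranked by the median difference in CD166- cells, and the CD166+ arrays, which the ranking did not use, were then read for the same genes. The CD166+ pair is not an independent check, because the Panc-1 arrays of the pairs correlated at 0.989. The lowest window lay on chromosome 19 and ran from FAM98C to ZFP36. Its median was -2.46, all 25 genes had lower signals in SW1990, and 18 were over 2-fold higher in Panc-1. Among CD166+ cells the median was -2.37 and 18 of 24 genes were over 2-fold higher in Panc-1, where the share over all genes was 14.2%. A segment of 19q13 that includes PAF1 and PAK4 is known to be amplified in Panc-1.

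Genes of this stretch ranged from signals near the floor on both CD166- arrays, such as LGALS7 with 22.1, not detected, and 50.6, to strong signals in Panc-1. PAF1, a subunit of a complex that works with elongating RNA polymerase II, had a signal of 694 in SW1990 and 12488 in Panc-1 CD166- cells, and 1146 and 13245 in CD166+ cells. PAK4, a kinase that acts on the cytoskeleton, had 408 and 1791, with 412 and 1834 in CD166+ cells. ACTN4, an actinin that links actin filaments, had 889.9 and 5212, and EIF3K, a subunit of a translation initiation factor, had 2543 and 13898. ZFP36, which destabilises mRNAs, was 25.3-fold higher in Panc-1.

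The run of genes higher in Panc-1 went on beyond ZFP36. On the other side PPP1R14A and SPINT2 were strongly higher in Panc-1, but the genes between them and FAM98C were mixed. YIF1B, C19orf33, KCNK6 and PSMD8 differed by -0.81, 1.04, -1.25 and -0.27 on the log2 scale. From PPP1R14A to AKT2, ends that were set after the values were seen, 32 of 46 genes were over 2-fold higher in Panc-1 and 1 in SW1990, with a median of -2.30, and in CD166+ cells 35 of 45 were higher in Panc-1, with a median of -2.27. The other 733 genes of chromosome 19 had a median of 0.23, and 66 of them were higher in Panc-1. AKT2, a kinase of insulin signalling, DLL3, an inhibitory Notch ligand (137 in SW1990 and 7060.5 in Panc-1 CD166- cells), PSMC4, a proteasome subunit, and SPINT2 lie in the run. The DLL3 signals differed by -5.69 on the log2 scale, and those of another DLL3 probe by -3.65. Of the 20 genes with the largest folds towards Panc-1 among those detected on both CD166- arrays, 6 lie in the run. The same folds guided the choice of its ends, so this count is a description only.

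Of the 5 windows with the highest medians 3 lay on chromosome 8. From the start of the chromosome to FNTA, an end set after the values were seen, 69 of 128 genes (53.9%) were over 2-fold higher in SW1990 and 7 (5.47%) in Panc-1, with a median of 1.09. The 241 genes beyond FNTA had a median of -0.27, with 10 (4.15%) higher in SW1990 and 43 (17.8%) in Panc-1. Among CD166+ cells 50 of the 123 genes up to FNTA were higher in SW1990, where the share over all genes was 12.9%, and the median was 0.79. ERLIN2, a lipid raft protein of the endoplasmic reticulum encoded in this stretch, had signals of 380.2 in SW1990 and 30.4, not detected, in Panc-1 CD166- cells, and of 204 and 35.3 in CD166+ cells. ERLIN2 and FOXN3 were the only 2 genes with signals over 200 on both SW1990 arrays that neither Panc-1 array detected, against 69 genes in the reverse pattern. Both counts depended on detection near the floor. RAB17, with 1404 and 418 on the SW1990 arrays, was left out because Panc-1 CD166+ cells had 37.5, detected. CCN2, with 3727 and 4230.3 on the Panc-1 arrays, was left out of the reverse pattern because SW1990 CD166+ cells had 45.3, detected.

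On chromosome 17 a window from TBC1D3B to SNORA21 had a median of 1.32, with 17 of 25 genes higher in SW1990 and 0 in Panc-1. In CD166+ cells its median was 0.70 and 8 of 25 genes were higher in SW1990. It holds ACACA, AATF, an apoptosis-antagonizing factor (755 in SW1990 and 269 in Panc-1 CD166- cells), ZNHIT3 (2305 and 711), and members of the TBC1D3 family, whose near-identical copies the probes may not separate. A window on chromosome 1 from MIGA1 to LMO4 had a median of -1.27 and -1.18 in CD166+ cells, and a window on chromosome 16 from PLA2G10 to IQCK had -1.23 and -1.02. Another window on chromosome 16, from COG8 to PHLPP2, had a median of 1.10 with 13 of 25 genes higher in SW1990, but 0.43 with 3 of 22 in CD166+ cells, a share near that over all genes. The medians of these 4 windows had the same sign in both pairs. Copy number was not measured on these arrays.

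**Figure D4:**
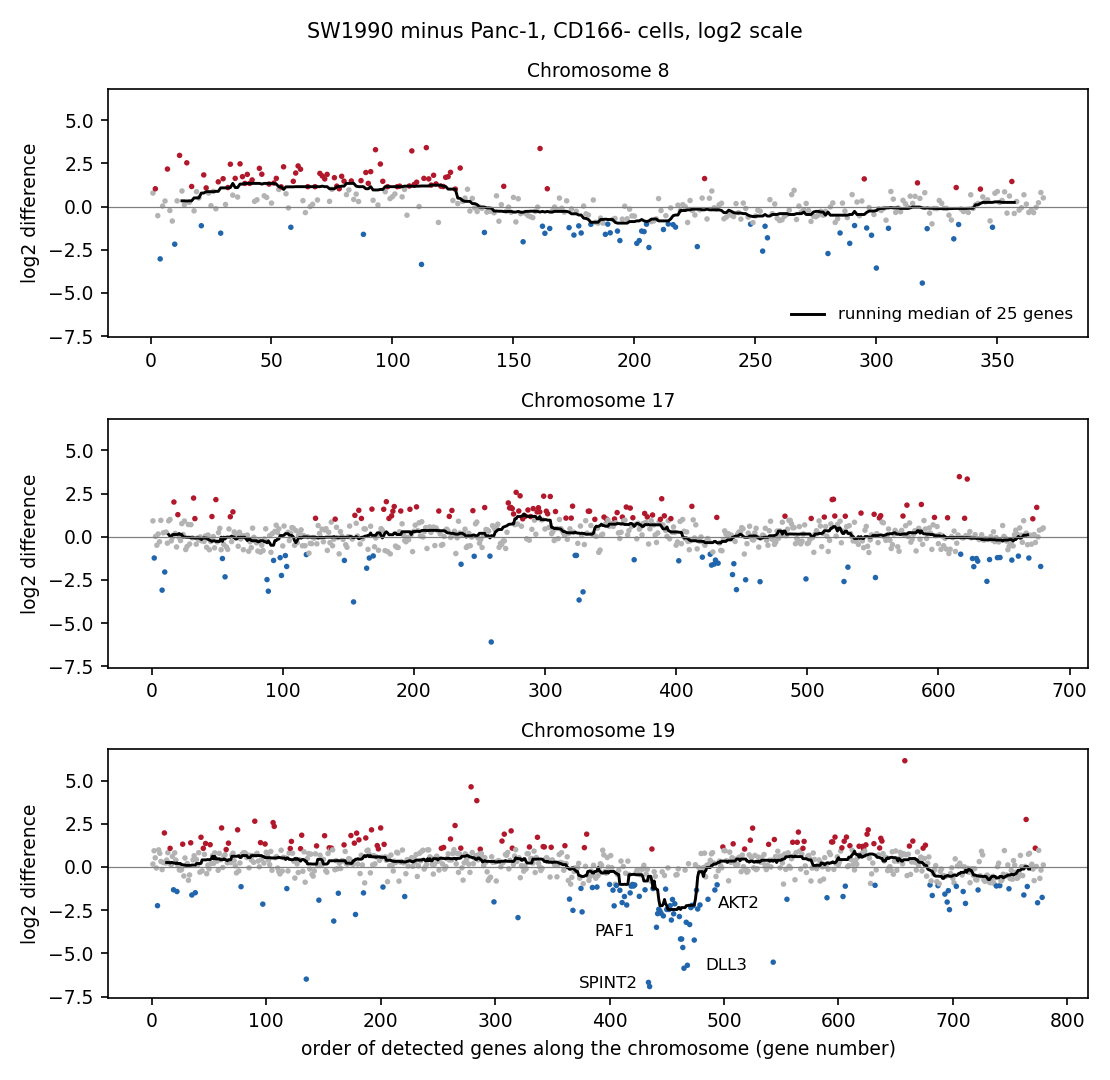
Log2 difference, SW1990 minus Panc-1, in CD166- cells (y axis) for each detected gene in its order along chromosomes 8, 17 and 19 (x axis), with the running median of 25 genes in black; red and blue points differ by over 2-fold. The first 128 genes of chromosome 8, up to FNTA, have a median of 1.09, and the running median reaches -2.46 on chromosome 19 near PAF1.

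The line difference in CD166- cells was set against that in CD166+ cells, which rests on the other 2 arrays. Among CD166+ cells 1429 of 11119 detected genes (12.9%) were over 2-fold higher in SW1990 and 1577 (14.2%) in Panc-1. Of the genes higher in SW1990, 340 were so in both pairs, which is 30.0% of the CD166- list and 23.8% of the CD166+ list. Of those higher in Panc-1, 643 were shared, which is 49.5% and 40.8%. In 62 genes higher in SW1990 and in 78 genes higher in Panc-1 among CD166- cells, the CD166+ cells differed by over 2-fold in the opposite direction. Over 10173 genes the 2 differences had a Pearson correlation of 0.471 and a Spearman correlation of 0.387, given as a description, since genes are not independent replicates. The pairs are not independent either, as the 4 arrays were normalized together and the Panc-1 arrays correlated at 0.989. Each difference subtracts one of these near-alike arrays, so part of the overlap and correlation is built in.

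**Figure D5:**
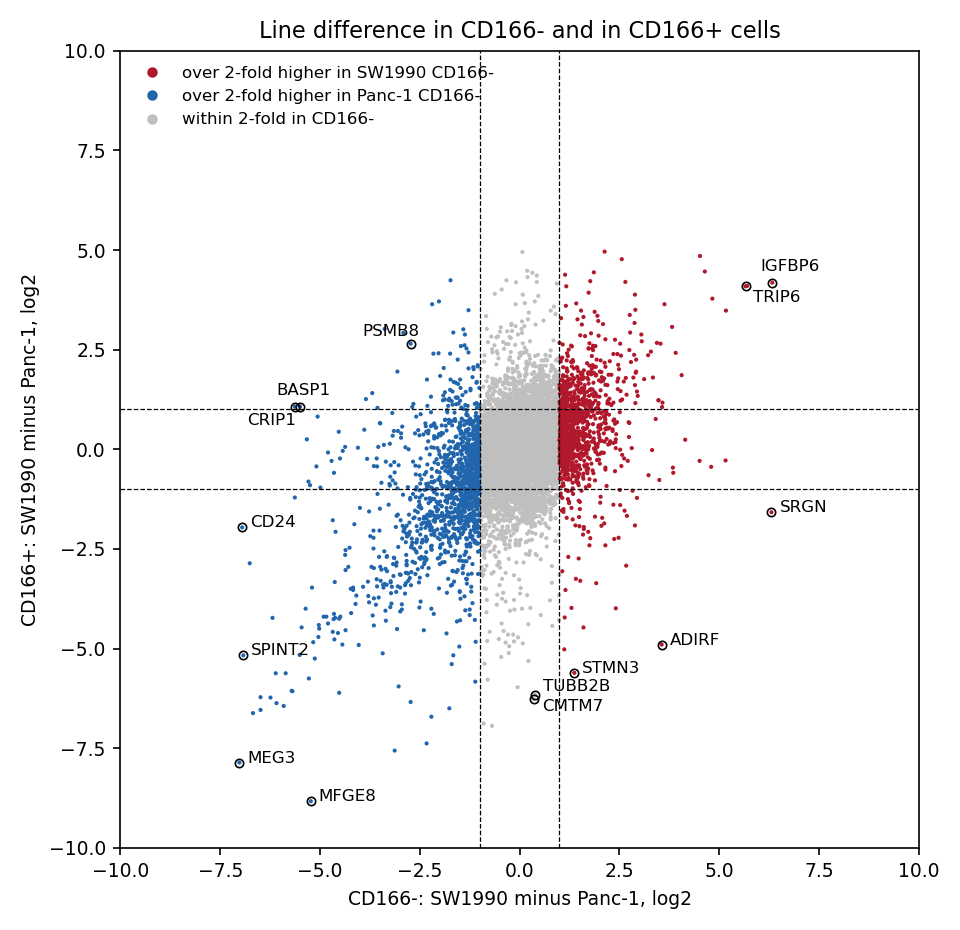
Log2 difference between the lines in CD166+ cells (y axis) against that in CD166- cells (x axis), 1 point for each gene with a difference in both pairs; dashed lines mark 2-fold. MEG3, MFGE8 and SPINT2 lie low in SW1990 on both axes and IGFBP6 and TRIP6 high on both, whereas SRGN, ADIRF and STMN3 lie in the lower right and CRIP1, BASP1 and PSMB8 in the upper left.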

How the data were processed

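RNA of 4 sorted populations was measured on Illumina HT-12v4 arrays, 1 array each, and the CD166- arrays of SW1990 and Panc-1 were compared. For 47315 probes an array, the authors deposited the mean intensity of the beads as scanned, not normalized and summarised with BeadStudio 3.2.3 according to the study's methods, and a detection p-value for each probe against the negative controls of its array. The deposited scaled intensity values of the same arrays served as an alternative. On each array they were the unnormalized intensities multiplied by 1 constant, and the method of scaling is not given in the sources used here.

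The neqc function of limma 3.58.1 under R 4.3.3 was applied to these intensities, where the negative controls are inferred from the detection p-values, an offset of 16 is added and all 4 arrays are quantile-normalized together. The script was tested on simulated data. By the platform annotation 30111 probes had 1 gene symbol, 8 had several and 17196 had none. Symbols were brought up to date by Entrez number with the RefSeq table of GRCh38.p14, which lacked 39 of the numbers. For a gene with several probes, the one brightest on average was used. A gene was called over 2-fold apart if the brighter array detected it at a detection p under 0.01. A side below detection took the lowest normalized signal of the detected probes on its array, 41.5 for SW1990 CD166- and 39.0 for Panc-1 CD166- cells. With 1 array a side the number of arrays limits the precision, and no test was run. Gene order came from RefSeq and no coordinate of a probe was used.

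Named genes are STMN3, CMTM7 and TUBB2B, the 20 with the largest fold in each direction among genes detected on both CD166- arrays, the 10 with the largest bound in each direction among genes detected on 1 of them, up to 6 members of each of 50 gene lists over 2-fold apart, and genes the study names, of which a part is given. Further genes, such as CDKN2A, MTAP, KRT8, EPCAM and those along chromosomes 8, 17 and 19, were named after their values were seen. The members and lists were chosen with earlier results of these data known. The comparison was repeated on the scaled table, with median scaling, with the CD166- arrays normalized alone, with an offset of 50, without background correction, with the mean over probes, with undetected sides as measured, for genes detected on both arrays, for all genes, at a detection p under 0.05, and at thresholds of 1.5-fold, 3-fold and 4-fold.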

Additional observations from a re-analysis of the deposited data

Results flagged for a closer look

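In 8 genes named above the lines differed by over 2-fold in one direction among CD166- cells and in the other among CD166+ cells, and this difference between the pairs was not tested. As SW1990 minus Panc-1 on the log2 scale, the values in CD166- and CD166+ cells were 1.37 and -5.61 for STMN3, 6.31 and -1.58 for SRGN, 1.41 and -3.25 for SPRY2, 1.12 and -5.02 for HOXB8, and 3.56 and -4.90 for ADIRF, an adipogenesis regulatory factor. In SW1990 CD166+ cells SRGN, HOXB8 and ADIRF were not detected, so their CD166+ differences were at least as large as given. The values were -5.50 and 1.07 for BASP1, -5.63 and 1.07 for CRIP1, and, for PSMB8, not detected in SW1990 CD166- cells, at least -2.73 and 2.65. In all 8 genes both Panc-1 arrays lay between the SW1990 arrays. With Panc-1 arrays so alike, this order follows largely from choosing genes with opposite directions in the pairs.

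Probes with no single gene name, which the comparison did not use, also carried differences. Of 17204 such probes 3817 were detected on either CD166- array, and 502 of these were over 2-fold apart, with 309 higher in SW1990 and 193 in Panc-1.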

How the results depend on the processing

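The number of genes over 2-fold higher in SW1990 was 684 without background correction and 508 in the scaled table, against 1132. The Panc-1 number fell too, to 867 and 1020, against 1299. It stayed within 1.5 times of 1299 under both, though 867 lay close to that limit. The cause was not tested. Thresholds of 1.5-fold, 3-fold and 4-fold gave 2362, 408 and 204 genes higher in SW1990 and 2354, 629 and 415 higher in Panc-1, by construction. Under the other alternatives both counts stayed within 1.5 times of the values given, and the median difference stayed within 0.1 under all that give one. Of the 1132 and 1299 genes, 44.8% and 78.0% were called in the scaled table and 82.5% and 80.4% with the mean over probes. Without background correction 60.4% and 66.7% of them were called. Of 117 called genes named above, 108 were called in the scaled table, which left out SMAD4, EHF, KRT80, ITGB4, BMP7, ALDH4A1, MKI67, SNORA21 and PHLPP2, and 111 with the mean over probes, which left out ITGB4, HOXC6, PDX1, ALDOA, FOXN3 and TBC1D3B. EHF was also left out under median scaling, EHF and SNORA21 with an offset of 50, and both and PHLPP2 without background correction. None of the 117 changed direction. Of the gene lists, 2 aldehyde dehydrogenases and 3 metalloproteinases or inhibitors were higher in SW1990 in the scaled values, in place of 6 and 6, and 6 interferon-stimulated genes were higher in Panc-1, in place of 10. Other lists changed too. Among the counts and medians of the 50 lists, 25 moved and 125 stayed in the scaled table. Without background correction 18 moved and 132 stayed, with the mean over probes 12 and 138, and with median scaling 5 and 145. Moved means a shift over 0.1 for a median or over 1.5 times for a count. No paired analysis was possible because each population had 1 array and no test was run. Signals near the floor limit the folds of dim genes, which are bounds.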

Other observations

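Further gene groups differed in parts. Of 18 detected chemokines, cytokines and their receptors 5 were higher in SW1990 and 4 in Panc-1. CXCL1, CXCL2 and CXCL5, which attract neutrophils, had signals of 1326, 225 and 246 in SW1990 CD166- cells, against 464, 28.4 and 27.7 on the Panc-1 CD166- array, the last 2 not detected, while CX3CL1, the ligand that binds CX3CR1, had 25.1, not detected, in SW1990 and 1368 in Panc-1. Among 18 detected tetraspanins 5 were higher in Panc-1 and 1 in SW1990. CD81, which forms membrane microdomains, had 6868 and 16435, and TSPAN8 was at 30.0, not detected, and 44.2. Of 25 detected aldo-keto reductases and NRF2 targets 6 were higher in SW1990, with NQO1, a quinone reductase, at 4465 and 1461, and 5 in Panc-1, with HMOX1 (heme oxygenase) at 146 and 473.

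Of 8 detected metallothioneins, which bind zinc and copper, 3 were higher in SW1990 and 2 in Panc-1. MT1E had a signal of 15142 in SW1990 against 5906 in Panc-1 CD166- cells, and MT1X 4854 against 1396, whereas MT1G had 224 and 518. These genes are near-identical copies and their probes may not separate them. Of 43 cancer-testis genes on the arrays, whose expression is usually limited to germ cells, 5 were detected in CD166- cells, 0 of them higher in SW1990 and 1, PRAME, in Panc-1, with 278 and 785. Among CD166+ cells 15 were detected, 11 of them higher in SW1990.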
